A study of Mus musculus with 2 samples.

Results

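The genes Gsdmc2, Gsdmc3, Gsdmc4 and Gsdmd of the gasdermin family were followed through single cells sorted from mouse colon crypts. They were taken by symbol and make up 4 of the 19294 gene symbols in 1 Drop-seq count matrix. Their levels across the cell clusters of these data were already known when they were chosen, and the clusters themselves had been made from counts that include these genes. Every level, share and fold is therefore given as a description with its counting error, and no test was run on any of them.

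The cells came from C57BL/6 mice of the genotype Tcf4 GfpCre/+ RosamTmG/+, sacrificed at 4 to 10 months of age with no pretreatment. In this knock-in line the Tcf4 promoter drives Cre, so that every animal carries a single working copy of Tcf4, the gene whose symbol in the matrix is Tcf7l2, and there was no wild-type group. The reporter makes membrane Tomato until Cre removes it and membrane GFP afterwards. Sorted cells that still made only Tomato (Tcf4 Lin-) and cells positive for both proteins (called Tcf4 DP in the labels) were each mixed with human cells on their own before capture, and GEO holds them as 2 pools (samples 1 to 3, samples 4 to 6) that the matrix joins. Its barcodes end in X1 (454 of the assigned cells) or X2 (62), and since no source ties these endings to a pool or to a sorted population, the whole matrix stands as 1 sample without replicates.

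Gasdermins are proteins that open pores in membranes. A protease cuts the linker between an amino-terminal domain and an inhibitory carboxy-terminal domain, and the freed amino-terminal domain assembles into pores in the plasma membrane, which can release interleukins and kill the cell by pyroptosis. Gsdmd is the widely expressed member that inflammatory caspases cut downstream of inflammasomes. The Gsdmc genes are copies of one another that the mouse carries side by side, are known from skin and gut epithelium, and are induced in the gut by the type 2 cytokines IL-4 and IL-13 during worm infection.

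All members lie on chromosome 15. In the GENCODE M21 annotation of GRCm38 (mm10), Gsdmc2 spans chr15:63824346-63845177, Gsdmc3 chr15:63857724-63878558 and Gsdmc4 chr15:63891264-63912297, each on the minus strand. Pseudogenes of the family on the plus strand lie between them, with 2131 bases between Gsdmc2 and Gsdmcl1 and 751 bases between Gsdmcl2 and Gsdmc4. Gsdmd lies apart from this cluster at chr15:75862327-75867408 on the plus strand, 11950029 bases beyond Gsdmc4.

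The 3 Gsdmc genes are close copies, which sets how far their counts can be told apart. Each has a coding sequence of 1443 bases. Over aligned bases, Gsdmc2 and Gsdmc3 were 97.3% identical, and each of them was 94.4% identical to Gsdmc4. Identity to the coding sequence of Gsdmd was between 61.4% and 64.5%. The first 120 coding bases, all in exon 2 of 12, show the likeness. They are printed 5′ to 3′ from the GENCODE transcripts (Gsdmc4 at chr15:63902811-63902930, Gsdmc2 at chr15:63835824-63835943, Gsdmc3 at chr15:63869178-63869297), with bases that differ from Gsdmc4 in capitals.
Gsdmc4: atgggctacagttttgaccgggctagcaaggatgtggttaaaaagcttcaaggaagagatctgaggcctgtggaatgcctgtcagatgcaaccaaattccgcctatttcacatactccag
Gsdmc2: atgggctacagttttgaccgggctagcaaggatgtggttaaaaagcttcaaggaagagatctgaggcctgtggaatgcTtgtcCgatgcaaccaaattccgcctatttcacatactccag
Gsdmc3: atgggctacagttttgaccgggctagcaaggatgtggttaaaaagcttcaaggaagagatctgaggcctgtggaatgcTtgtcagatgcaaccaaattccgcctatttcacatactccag
With positions counted from 1 at the start codon and the base of Gsdmc4 first, the differences are C79T in both Gsdmc2 and Gsdmc3 and A84C in Gsdmc2.

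Drop-seq reads come from near the 3′ end of a transcript, so the last coding bases and what follows them matter more for the counts. The last 120 coding bases, all in exon 12 of 12, carry more differences from Gsdmc4, again in capitals (Gsdmc4 at chr15:63891804-63891923, Gsdmc2 at chr15:63824878-63824997, Gsdmc3 at chr15:63858271-63858390).
Gsdmc4: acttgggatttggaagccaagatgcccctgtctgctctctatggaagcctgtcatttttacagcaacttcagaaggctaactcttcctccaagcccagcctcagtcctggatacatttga
Gsdmc2: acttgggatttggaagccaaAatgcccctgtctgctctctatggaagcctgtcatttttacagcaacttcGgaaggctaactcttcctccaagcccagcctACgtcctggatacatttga
Gsdmc3: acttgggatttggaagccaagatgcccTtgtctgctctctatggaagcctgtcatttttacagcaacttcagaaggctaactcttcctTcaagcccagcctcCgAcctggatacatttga
Gsdmc2 and Gsdmc3 each differ from Gsdmc4 at 4 bases here. Over the last 500 bases of the transcripts, 0 of the 401 windows of 100 bases of Gsdmc4 occur in a transcript of another gene, against 14.0% to 22.7% of those of Gsdmc2 and 13.5% to 14.2% of those of Gsdmc3, depending on the transcript. With windows of 50 bases the shares are 7.98% for Gsdmc4, 33.3% to 55.7% for Gsdmc2 and 38.1% to 38.8% for Gsdmc3. Gsdmd shared 0 windows of either length. Counts of Gsdmc2 and Gsdmc3 are therefore uncertain against each other and against Gsdmc, which has no row in the matrix. Gsdmc4 shares fewer exact windows. Over aligned bases, however, its last 500 bases were 95.6% identical to those of Gsdmc2 and 94.8% to those of Gsdmc3, against 52.4% for Gsdmd. Its counts are thus less exposed to shared reads than those of Gsdmc2 and Gsdmc3, but not as separate as those of Gsdmd.

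Of the 1117 barcodes, 516 have a cluster in the authors' tables. These tables name 4 clusters, the natural intraepithelial lymphocytes (nIELs, 190 cells), induced intraepithelial lymphocytes (iIELs, 186), epithelial Pigr+ cells (93) and B cells (47). A second table splits 106 epithelial cells into stem cells (32 cells with 69046 unique molecular identifiers, UMIs), secretory precursors (32 cells, 128664 UMIs) and absorptive precursors (42 cells, 151780 UMIs), with median depths of 995.5, 1820.5 and 1939.5 UMIs per cell. The tables overlap unevenly. Of the 106 subclustered cells, 92 are epithelial Pigr+ cells in the first table, 11 are iIELs and 3 are nIELs. For this reason the comparison outside the epithelium used the 362 IELs that are in no subcluster (median 1038 UMIs). Epithelial markers (Epcam, Pigr, Krt8, Krt18 and Krt19) summed to between 16353 and 23112 UMIs per 1000000 (CPM) in the subclusters and to 96.4 CPM in those IELs. T cell markers (Cd3d, Cd3e, Cd3g, Trac and Cd8a) were at 5158 CPM in the IELs, 125 CPM in absorptive precursors and 0 in the other subclusters. Goblet cell markers (Muc2, Fcgbp, Clca1, Spink4 and Agr2) were at 61120 CPM in secretory precursors, 18611 CPM in the cells labelled stem cells, where 213 of the 236 Muc2 UMIs lay in 1 cell, and 4447 CPM in absorptive precursors. Intervals on all values cover counting error only.

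Gsdmc4 was the most abundant of the 4 genes in these cells and was highest in absorptive precursors. It had 233 UMIs there, or 1535 CPM (95% Poisson interval 1344 to 1745), against 319 CPM in stem cells (199.7 to 482, 22 UMIs) and 202 CPM in secretory precursors (132 to 296, 26 UMIs). The level in absorptive precursors was 6.32 times that of the other epithelial cells (exact binomial interval 4.62 to 8.82). The authors named this subcluster from enterocyte markers that included Gsdmc4, so a high level there was part of how the label was chosen. The interval of absorptive precursors did not overlap those of the other subclusters, whereas stem cells and secretory precursors differed by less than counting error (ratio 0.634, 0.346 to 1.17). That ratio rests on 2 deep cells, 1 in each subcluster, which held 22 of the 26 secretory and 13 of the 22 stem cell UMIs. Without them the summed level of the 3 Gsdmc genes was 51.7 CPM (19.0 to 112.6) in secretory precursors and 240.0 CPM (119.8 to 429) in stem cells, with intervals that do not overlap. Of the 11 UMIs then left in stem cells, 7 lay in 1 cell of 4600 UMIs, so that separation rests largely on 1 cell. These levels count transcripts by UMI at the 3′ end and were not divided by length.

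Gsdmc2 followed the same order at a lower level. It had 126 UMIs and 830.1 CPM (692 to 988) in absorptive precursors, 188 CPM (100.3 to 322) in stem cells and 54.4 CPM (21.9 to 112) in secretory precursors. The fold of absorptive precursors over the other epithelial cells was 8.21 (5.10 to 13.9). Secretory precursors were at 0.289 of the level of stem cells (0.0976 to 0.779), but 11 of the 13 UMIs of the stem cells were in 1 cell.

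Gsdmc3 had the fewest UMIs of the 3 copies and the highest fold of absorptive precursors over the other epithelial cells. It had 54 UMIs in absorptive precursors, 356 CPM (267 to 464), against 57.9 CPM (15.8 to 148) in stem cells and 7.77 CPM (0.197 to 43.3) in secretory precursors, where a single UMI was counted. Its fold was 14.1 (5.67 to 45.1), an interval that overlaps those of Gsdmc2 and Gsdmc4. Among the cells that both tables call epithelial it was 41.1, with 1 Gsdmc3 UMI outside absorptive precursors. All 4 Gsdmc3 UMIs of the stem cells came from 1 cell.

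Gsdmd did not share this pattern. Its 24 epithelial UMIs fell to stem cells (7 UMIs, 101 CPM, 40.8 to 209), absorptive precursors (10 UMIs, 65.9 CPM, 31.6 to 121) and secretory precursors (7 UMIs, 54.4 CPM, 21.9 to 112), with overlapping intervals. The fold of absorptive precursors over other epithelial cells was 0.930 (0.370 to 2.25), and a difference inside that interval was not detectable at this depth. In absorptive precursors Gsdmc4 thus had 233 UMIs where Gsdmd had 10.

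**Figure D1:**
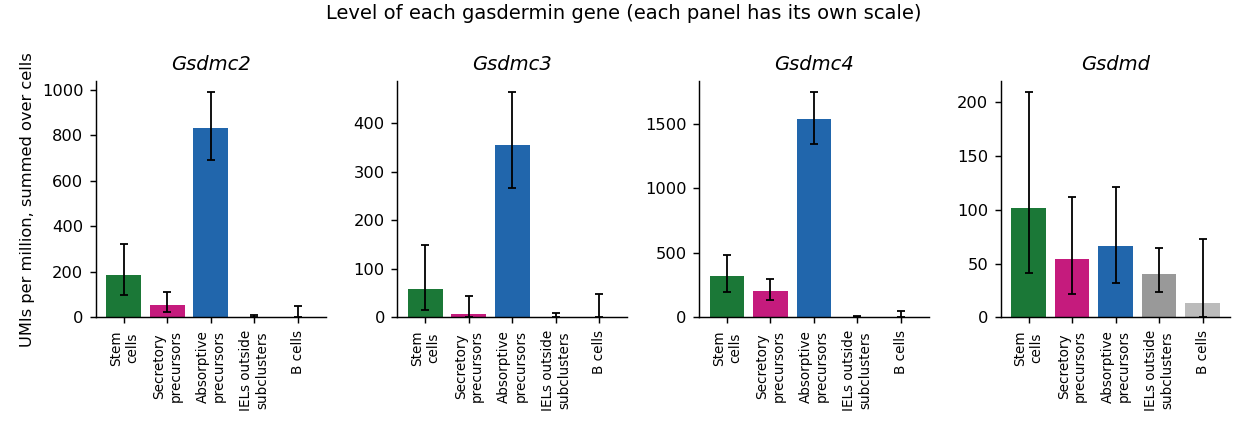
Level of each gene in CPM, summed over the cells of each subcluster, of the 362 IELs outside the subclusters and of the 47 B cells. Error bars are 95% Poisson intervals for counting error, and each panel has its own scale. Gsdmc2, Gsdmc3 and Gsdmc4 stand highest in absorptive precursors, at 830.1, 356 and 1535 CPM, whereas the intervals of Gsdmd overlap among the 3 subclusters.

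Among the 3013 genes with at least 20 UMIs in the subclustered cells, 390 (12.9%) were at least 2-fold higher in absorptive precursors than in the other epithelial cells, with a median fold over all genes of 1.08. Of the 4 members, all of which passed this minimum, 3 were past that fold. They ranked 4th (Gsdmc3), 20th (Gsdmc2) and 30th (Gsdmc4) from the highest, and Gsdmd ranked 1805th. In secretory precursors the same 3 genes were at 0.0864 (Gsdmc2), 0.0296 (Gsdmc3) and 0.175 (Gsdmc4) of the level of the other epithelial cells, where 18.0% of genes were at least 2-fold lower, and the value of Gsdmc3 rests on 1 UMI (0.000737 to 0.172). In stem cells they were at 0.397, 0.295 and 0.345, where 16.1% of genes were at least 2-fold lower. Because the genes were chosen for this pattern, their ranks describe it and lend it no further support.

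Lymphocytes had next to none of the Gsdmc transcripts. Of 487 Gsdmc UMIs in assigned cells, 1 Gsdmc4 UMI lay in an IEL outside the subclusters, and Gsdmc2 and Gsdmc3 had 0 UMIs there, which allows up to 7.06 CPM. B cells and nIELs had 0 UMIs of any Gsdmc gene, including the 3 subclustered cells that the first table calls nIELs. With the 0 counts of those IELs set to the floor of 3, Gsdmc2 in the subclustered cells was at 59.2 times their level (lower limit 47.5). Gsdmc3 was at 23.9 times (lower limit 18.9). For Gsdmc4 the ratio was 342 (60.9 to 13550) on its single UMI, which lay in a cell of 537 UMIs that also held 6 Pigr UMIs. Gsdmd was found in both compartments, at 68.7 CPM (44.0 to 102) in the subclustered cells and 39.98 CPM (23.3 to 64.0) in the IELs, a ratio of 1.72 (0.885 to 3.41).

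The label of the cluster hides this contrast in part. Set against all other assigned cells, the epithelial Pigr+ cluster was 4.16-fold higher in Gsdmc4 (3.25 to 5.35), 3.20-fold in Gsdmc2 (2.28 to 4.52) and 2.35-fold in Gsdmc3 (1.36 to 4.05), where 19.2% of 6173 genes were at least 2-fold higher, and Gsdmd stood at 1.35 (0.668 to 2.63). The cells labelled iIELs held 197 Gsdmc UMIs, and all but 1 of them were in cells that the subcluster table calls epithelial. When the cells that either table calls epithelial were set against the remaining assigned cells, the ratio was 403 for Gsdmc4 (71.7 to 15971). With 0 counts set to 3, it was 69.8 for Gsdmc2 (lower limit 56.0) and 28.2 for Gsdmc3 (lower limit 22.2).

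Absorptive precursors also stood highest for the 3 Gsdmc genes when cells were counted in place of UMIs, while the order of the other subclusters was not the same for every gene. At least 1 UMI of Gsdmc4 was found in 34 of 42 absorptive precursors, or 81.0% (Clopper-Pearson 95% interval 65.9% to 91.4%). The shares were 15.6% among stem cells (5 of 32, 5.28% to 32.8%) and 12.5% among secretory precursors (4 of 32, 3.51% to 29.0%). Gsdmc2 was detected in 64.3% of absorptive precursors (48.0% to 78.4%), against 9.38% of secretory precursors and 6.25% of stem cells. Gsdmc3 was detected in 45.2% of absorptive precursors (29.8% to 61.3%), and in 1 cell of each of the other subclusters. By contrast, Gsdmd was detected in 16.7% of absorptive precursors (6.97% to 31.4%) and in 18.8% of both stem cells and secretory precursors. In the IELs outside the subclusters, which are no epithelium, the share with a UMI was 0.276% for Gsdmc4, 0 for Gsdmc2 and Gsdmc3, which allows up to 0.829% of cells, and 4.70% for Gsdmd.

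Detection depends on depth, and the subclusters differ in it. When each cell was thinned to 800 UMIs, which left out 98 of 362 IELs, 9 of 32 stem cells, 6 of 42 absorptive and 3 of 32 secretory precursors as too shallow, at least 1 Gsdmc UMI was found in 73.4% of absorptive precursors. Stem cells then stood at 13.7%, secretory precursors at 6.31% and IELs at 0%. Without thinning these shares were 85.7%, 15.6%, 18.8% and 0.276%. For Gsdmd the thinned shares ran from 8.39% (stem cells) through 5.10% (secretory) and 4.03% (absorptive precursors) to 3.55% (IELs), so that the gap between the epithelium and the lymphocytes narrowed.

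**Figure D2:**
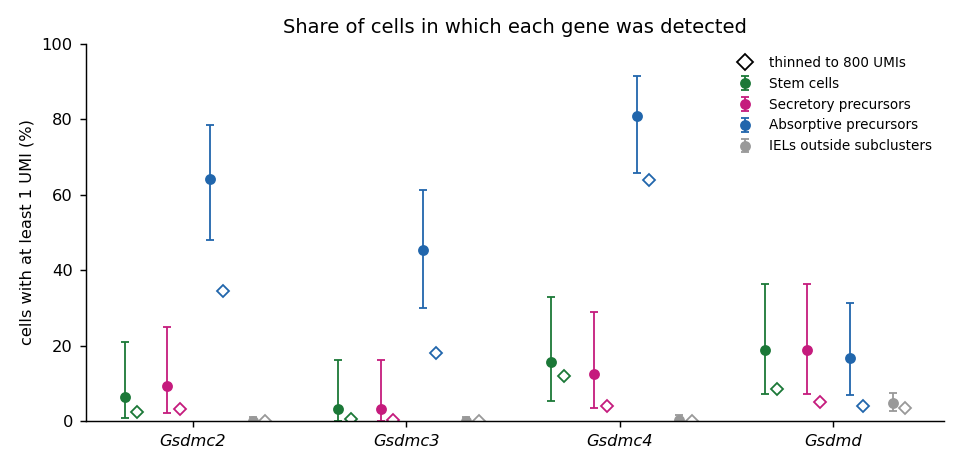
Share of cells with at least 1 UMI of each gene, in percent, for the 3 subclusters and the IELs outside them. Filled points with bars are the shares as deposited with Clopper-Pearson 95% intervals, and open diamonds are the shares after thinning each cell to 800 UMIs. Absorptive precursors stand apart for the 3 Gsdmc genes, at 64.3%, 45.2% and 81.0%, and not for Gsdmd, at 16.7%.

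Absorptive precursors varied widely among themselves. Their summed Gsdmc level ranged from 0 through a median of 2134 CPM to 14504 CPM, with quartiles at 965 and 3149 CPM. The highest value was 19 UMIs in a cell of 1310. Of the 42 cells, 17 held UMIs of all 3 genes, 10 of exactly 2, 9 of exactly 1 and 6 of none, where a single level shared by all cells would give 1.74 cells with none. Among the cells without any Gsdmc UMI were 2 deep ones, of 4662 and 5546 UMIs, with 34 and 88 Pigr UMIs and 0 and 2 of the absorptive marker Lgals3. At the summed level of the subcluster they would have held 12.7 and 15.1 Gsdmc UMIs. Another, of 1536 UMIs, is called an iIEL in the first table and held 2 Cd3g UMIs and 1 Pigr UMI.

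**Figure D3:**
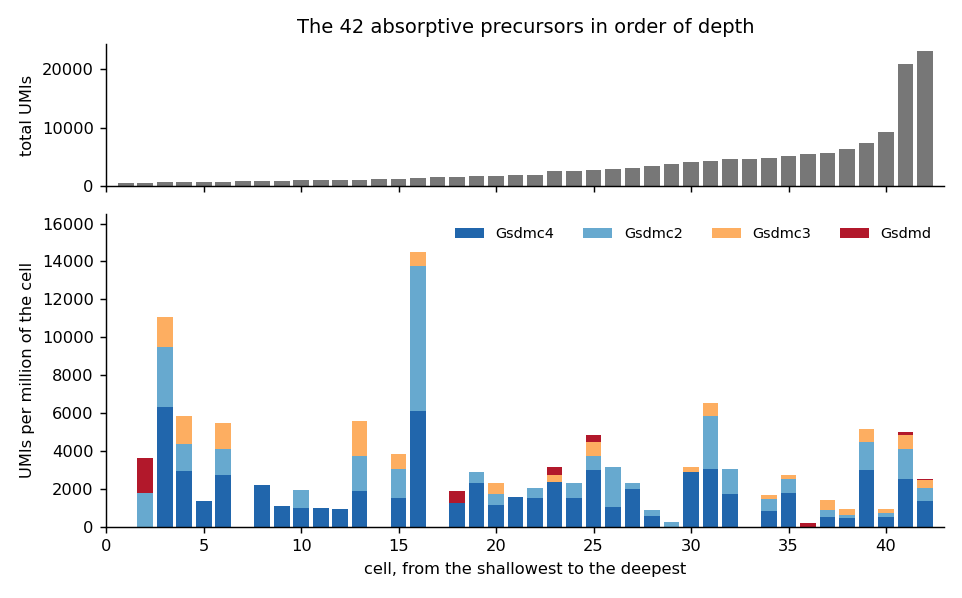
The 42 absorptive precursors from the shallowest to the deepest. The upper bars give the total UMIs of each cell and the lower stacked bars the level of Gsdmc4, Gsdmc2, Gsdmc3 and Gsdmd in CPM of that cell. The level varied from 0 to 14504 CPM for the summed Gsdmc genes, and cells with none lay among shallow and deep cells alike.

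A few deep cells carried many of the UMIs. The 2 deepest absorptive precursors held 158 of the 413 Gsdmc UMIs (38.3%) and 29.0% of all UMIs of the subcluster. The first table calls these 2 cells iIELs, and its deepest epithelial Pigr+ cell has 12861 UMIs. Among cells that both tables call epithelial, which leaves them out, the absorptive folds were 12.1 for Gsdmc2 and 6.22 for Gsdmc4. In the secretory precursors, 28 of 34 Gsdmc UMIs lay in 1 cell of 12713 UMIs, and the remaining cells were at 51.7 CPM (19.0 to 113). This cell held 100 Muc2 and 423 Clca1 UMIs of the goblet lineage along with 24 Lgals3 and 8 Aqp4 UMIs. In the stem cells, 28 of 39 Gsdmc UMIs lay in 1 cell of 23205 UMIs, the deepest of all, and the remaining cells were at 240.0 CPM (119.8 to 429). That cell held 213 Muc2, 296 Clca1 and 291 Agr2 UMIs against 4 UMIs of the stem cell marker Sox4, and the first table calls it an iIEL. Whether such cells are doublets was not tested, and no doublets were removed here. With the top stem cell and the top secretory cell set aside, 11 Gsdmc UMIs were left in 4 stem cells and 6 in 5 secretory precursors. Of these 11, 7 lay in 1 cell.

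**Figure D4:**
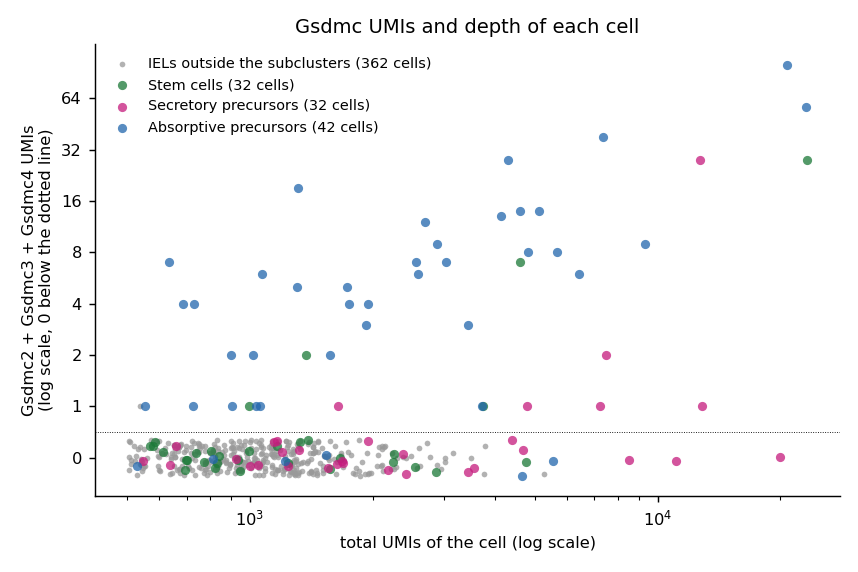
Summed UMIs of Gsdmc2, Gsdmc3 and Gsdmc4 in each cell against the total UMIs of that cell, both on log scales, with cells at 0 spread below the dotted line. Points are the 42 absorptive precursors, 32 secretory precursors, 32 stem cells and 362 IELs outside the subclusters. Of the 42 absorptive precursors 36 lie above the dotted line, along with 6 secretory precursors, 5 stem cells and 1 IEL. Of these others, 1 secretory precursor and 1 cell labelled a stem cell, both deep, hold 28 UMIs each.

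Gsdmc4 made up the largest share of the Gsdmc UMIs in each subcluster and Gsdmc3 the smallest. Of the Gsdmc UMIs of absorptive precursors, 56.4% were Gsdmc4 (51.5% to 61.3%), 30.5% Gsdmc2 (26.1% to 35.2%) and 13.1% Gsdmc3 (9.98% to 16.7%). In stem cells the shares were 56.4%, 33.3% and 10.3%, on 39 UMIs of which 28 lay in 1 cell. In secretory precursors they were 76.5% (58.8% to 89.3%), 20.6% and 2.94% on 34 UMIs, where 22 of the 26 Gsdmc4 UMIs lay in the single cell named above. Without its 2 deepest cells, the absorptive subcluster was at 58.4%, 30.2% and 11.4%. Within single cells Gsdmc4 exceeded Gsdmc2 in 29 absorptive precursors, the reverse held in 4 and both were equal above 0 in 3. In 0 cells did Gsdmc3 exceed Gsdmc4. Reads that the near-identical ends could not separate were not resolved here, so the proportions of Gsdmc2 and Gsdmc3 may be shifted by how the authors' counting treated them.

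Co-detection per cell was high between the copies. All 21 epithelial cells with Gsdmc3 also held Gsdmc4, and 19 of them held Gsdmc2. Of the 32 cells with Gsdmc2, 28 held Gsdmc4. Independent detection over all 106 cells would give 8.52, 6.34 and 13.0 such cells, so the observed numbers were 2.47 (1.53 to 3.77), 3.00 (1.80 to 4.68) and 2.16 times (1.43 to 3.12) the expected ones. The ratios were lower within subclusters. With detection taken as independent within each subcluster the ratios were 1.34 (0.830 to 2.05), 1.54 (0.925 to 2.399) and 1.24 (0.825 to 1.80), and within absorptive precursors 1.24, 1.39 and 1.144, all with intervals that reach below 1. The intervals treat the number of cells with both genes as a free count, although it cannot exceed the total of the rarer gene. They therefore cannot decide whether an excess remains within subclusters. Cells also share their depth, and deep cells detect more of every gene. Reads that the near-identical ends could not separate may also be counted under another copy. Their effect on co-detection was not tested.

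When a single copy was detected in an absorptive precursor, it was Gsdmc4 in 7 of 9 cells, Gsdmc2 in 2 and Gsdmc3 in none. Gsdmd was detected in 10 of the 47 epithelial cells with a Gsdmc UMI, where 8.42 were expected (ratio 1.19, 0.569 to 2.18). In absorptive precursors the observed number equalled the expected one, at 6 cells. Both intervals span 1, so at this depth no tie between Gsdmd and the Gsdmc genes in single cells was detectable.

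Subcluster markers placed the Gsdmc genes on the absorptive side. Of the 47 epithelial cells with a Gsdmc UMI, 35 held the absorptive marker Lgals3 (ratio to independent detection 1.79, 1.25 to 2.495) and 31 held the water channel gene Aqp4 (1.94, 1.32 to 2.76). The goblet mucin Muc2 was found in 12 (0.629, 0.325 to 1.10) and the stem cell marker Sox4 in 7 (0.585, 0.235 to 1.20). These markers also defined the subclusters, and within subclusters the ratios were 1.16, 1.13, 1.01 and 0.895.

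The genes whose level across the 106 epithelial cells was most like the summed Gsdmc level were found by Pearson's r of log levels per 10000 UMIs over 3010 genes, the Gsdmc genes excluded. They were the Riken gene 2200002D01Rik (r = 0.710), Aqp4 (0.648), the galectin gene Lgals3 (0.642), Uqcrb of the respiratory chain (0.604), the keratin gene Krt19 (0.602), the membrane mucin gene Muc3 (0.596), Selenbp1 (0.590) and the galectin gene Lgals4 (0.575). The first of them had 279 UMIs among absorptive precursors, against 20 in stem cells and 27 in the secretory subcluster. Gsdmd was at r = 0.0372, rank 1611, and Muc2 at -0.405, rank 3008. These points share 1 matrix, their subclusters and their range of depth, and r fell when that range was removed. After thinning to 800 UMIs the values of the first 3 were 0.538, 0.479 and 0.486, and 7 of the 8 genes were still among the first 8, with Uqcrb at rank 19.

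Other members of the family had few UMIs or no row. Of the 10 gasdermin family genes looked for, 5 had a row, and Gsdma, Gsdma2, Gsdma3, Gsdmc and Pjvk had none. Gsdme, listed as Dfna5, had 10 UMIs in 9 assigned cells, of which secretory precursors held 5 UMIs and stem cells 1, while absorptive precursors had 0, which allows up to 19.8 CPM. The other epithelial cells held 6 UMIs, under the minimum of 20. The upper limit of the absorptive fold of Gsdme was 1.11, so no difference was detectable. The pseudogene Gsdmcl-ps had 7 UMIs in absorptive precursors and 3 in 1 stem cell, with 0 in the secretory subcluster, and Gsdmcl2 had 2 UMIs, both in absorptive precursors.

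Genes that act with gasdermins were described from a list of 30 proteases, inflammasome and pore genes, of which 25 had a row and 7 had at least 20 UMIs in the subclustered cells. Of these 7, 3 were at least 2-fold higher in absorptive precursors and 0 at least 2-fold lower, where 12.9% of all 3013 genes were higher and 12.6% lower. The median fold was 1.70 against 1.08 over all genes. The 3 were Il18, the interleukin that caspase-1 matures, Casp1, which encodes that caspase, and Pycard, the adaptor that joins it to inflammasome sensors. Il18 had 48 UMIs among absorptive precursors, 3 among secretory precursors and 4 among stem cells (8.93-fold, 4.02 to 23.4). Casp1 had 53, 11 and 2 UMIs (5.31-fold, 2.86 to 10.6), and was also present in the IELs at 115 CPM against 349 CPM in absorptive precursors. Pycard had 131, 36 and 19 UMIs (3.10-fold, 2.25 to 4.33). Without the cell that held the most UMIs of the gene these folds were 7.25, 4.65 and 3.07.

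Sensors and membrane repair genes of the same list did not pass the 2-fold limit. Nlrp6, an intestinal inflammasome sensor, had 17 UMIs among absorptive precursors, 11 among stem cells and 2 among secretory precursors (1.70-fold, 0.779 to 3.81). Aim2, the sensor of cytosolic DNA, was at 1.30 (0.677 to 2.51), Chmp4b, which helps to repair the plasma membrane, at 0.760 (0.421 to 1.34), and Nlrc4, the sensor partner of the Naip proteins, at 0.507 (0.179 to 1.27). Casp8, the caspase known to cut human GSDMC, had 5, 4 and 2 UMIs, under the minimum of 20 (1.09-fold, 0.262 to 4.27). The granzyme genes Gzma and Gzmb, whose products can cut other gasdermins, were at 1131 and 487 UMIs in the IELs and at 1 and 0 UMIs in the subclustered cells.

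All 11 absorptive precursors with Il18 and all 22 with Casp1 held a Gsdmc UMI, as did 23 of the 25 with Pycard. Independent detection within that subcluster would give 9.43, 18.9 and 21.4 cells, and the ratios were 1.17 (0.582 to 2.09), 1.17 (0.731 to 1.77) and 1.07 (0.680 to 1.61). For Il18 and Casp1 no higher number was possible. These intervals treat the number of cells with both as a free count, so they cannot tell whether the excesses go beyond counting error. Across the 106 cells r with the summed Gsdmc level was 0.431 for Casp1 (rank 34 of 3010), 0.348 for Pycard (rank 91) and 0.333 for Il18 (rank 109).

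**Figure D5:**
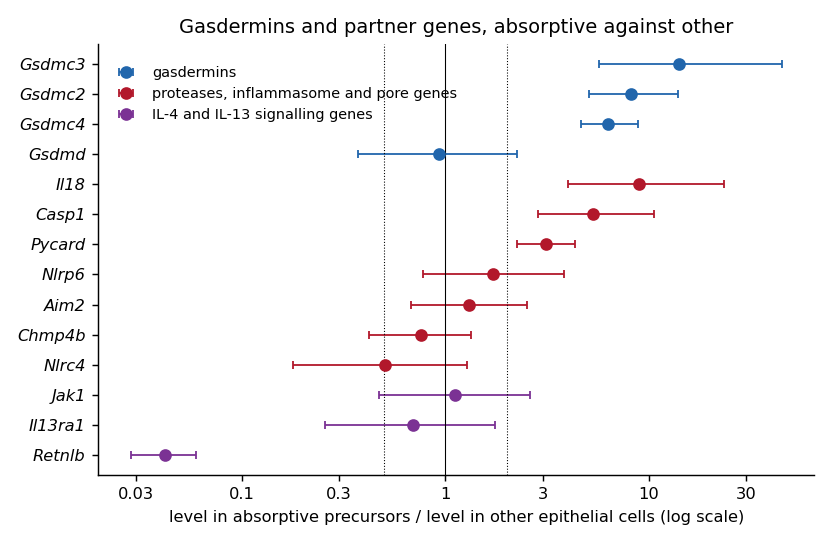
Level in absorptive precursors divided by that in the other epithelial cells, on a log scale, for the 4 members and for the listed partner genes with at least 20 UMIs in the subclustered cells. Bars are exact binomial 95% intervals for counting error, the solid line marks 1 and the dotted lines mark 2-fold. Il18, Casp1 and Pycard lie on the same side as the Gsdmc genes, Gsdmd lies at 0.930, and Retnlb lies lowest at 0.0418.

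The IL-4 and IL-13 pathway, the known inducer of Gsdmc in the gut, was looked at through 11 genes, of which 9 had a row and 3 had at least 20 UMIs in the subclustered cells. Of these 3, 0 were at least 2-fold higher and 1 was at least 2-fold lower in absorptive precursors, against 12.9% and 12.6% of all genes. The median fold was 0.695 against 1.08 over all genes. No row was found for Il4 or Il13. Il13ra1, a chain of the receptor, had 12 UMIs among secretory, 8 among absorptive precursors and 3 among stem cells (0.695-fold, 0.255 to 1.75). Jak1, a kinase bound to these receptors, was at 1.12 (0.472 to 2.60). Il4ra, the chain shared by both cytokines, had 2 epithelial UMIs. Retnlb, a goblet cell product that IL-13 induces, ran opposite to Gsdmc, with 598 UMIs among secretory precursors and 399 among stem cells against 32 among absorptive precursors (0.0418-fold, 0.0284 to 0.0594), although 394 of the 399 lay in 1 cell.

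The 106 cells were also grouped again by k-means into 3 groups with 8 gasdermin genes and pseudogenes left out. Genes that vary with them were not left out, and cells and counts were the same. The folds below therefore describe the pattern again and lend it no independent support. The new groups gave 95 cells (89.6%) the same subcluster as before (adjusted Rand index 0.716), and 40 of the 45 cells matched to absorptive precursors carry that label. In the new groups the fold of that group over the other epithelial cells was 7.42 for Gsdmc2, 9.26 for Gsdmc3 and 5.62 for Gsdmc4. For Gsdmd it was 1.74, on the other side of 1 from the 0.930 of the authors' subclusters and within its counting interval. Between barcode sets the folds differed in size. Within X1 the absorptive fold was 16.9 (7.93 to 42.9) for Gsdmc2, 7.67 (5.11 to 11.9) for Gsdmc4 and 50.2 (8.59 to 2023) for Gsdmc3, with 1 UMI outside absorptive precursors. Within X2, which holds 8 absorptive precursors and the deepest cell labelled a stem cell, the folds were 2.58 (1.10 to 6.03), 4.29 (2.43 to 7.76) and 3.87 (0.917 to 18.6).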

How the data were processed

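The authors deposited 1 table of whole-number UMI counts per gene symbol and barcode. Per the labels and submitters' processing notes it was made from 125-cycle paired-end Drop-seq reads with STAR 2.5.0 and Picard 1.137 on mm10 and hg19, and the study clustered cells in Seurat. How reads shared by near-identical genes were counted is not given in the sources used here. Clusters were joined by barcode from the study's tables, and all 516 assigned cells entered with no further filter and no removal of doublets. Depth ran from 504 to 23205 UMIs per assigned cell.

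From the deposited counts, UMIs were summed per cluster and divided by its total UMIs (CPM), with exact Poisson, exact binomial and Clopper-Pearson 95% intervals. A count of 0 was read as up to 3 counts. Folds were taken over genes with at least 20 UMIs in the cells compared, shares also after thinning to 800 UMIs (100 draws), and cells were grouped again by k-means (scikit-learn 1.9.0, 1000 variable genes, 5 principal components, 50 restarts). Python 3.11.15, numpy 2.4.6, scipy 1.17.1, pandas 2.3.3 and scanpy 1.11.5 were used. The folds and their intervals were tested on simulated counts and the sequence alignment on a made sequence. Named genes are the 4 members, the listed partner genes and the 8 genes most like the summed Gsdmc level. Members and lists were chosen with earlier results of these data known, and some genes and cells were singled out after their values were seen. With 1 sample, no comparison of samples was possible.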

Additional observations from a re-analysis of the deposited data

Results flagged for a closer look

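Barcodes that the study's tables put in no cluster also held Gsdmc transcripts. Over the 601 such barcodes, which the comparisons did not use, 34 UMIs of Gsdmc2, Gsdmc3 and Gsdmc4 were counted (198 CPM) in 22 barcodes (3.66%, Clopper-Pearson 95% interval 2.31% to 5.49%), above the limit that a count of 0 allows, with at most 5 in 1 barcode. Of these 22 barcodes, 19 also held Pigr, which 31.9% of all unassigned barcodes held, 8 held Epcam and 1 held Cd3e or Cd3g. Their depth ran from 112 to 4766 UMIs with a median of 403. Gsdmc4 made up 67.6% of the UMIs, Gsdmc2 26.5% and Gsdmc3 5.88%. Over all unassigned barcodes, 36.8% of UMIs were mitochondrial, against 3.83% in assigned cells.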

How the results depend on the processing

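Among the recomputed values, 75 stayed within their counting interval or within 1.5 times a count, 50 moved beyond it and 1 whose interval excluded 1 turned direction. The absorptive fold of Gsdmd (0.930), whose interval spans 1, also crossed it, at 1.74 in the k-means groups and 1.03 in X2. That of Gsdmc3 was 41.1 in cells that both tables call epithelial, with 1 UMI outside absorptive precursors. The absorptive fold of Gsdmc2, Gsdmc3 and Gsdmc4 (8.21, 14.1, 6.32) was 27.6, 83.5 and 15.0 when CPM values of single cells were averaged and 2.58, 3.87 and 4.29 in X2, and was 16.9 for Gsdmc2 and 50.2 for Gsdmc3 in X1. The fold of the epithelial Pigr+ cluster (3.20, 2.35, 4.16) was, for Gsdmc2, Gsdmc3 and Gsdmc4, 46.7, 37.0 and 32.7 by that average. It was 6.49, 4.54 and 8.19 without the cell with the most UMIs of the gene. For cells that either table calls epithelial it was 69.8 and 28.2 for Gsdmc2 and Gsdmc3, with 0 counts set to 3, and 403 for Gsdmc4. Another setting, chosen after seeing the data, left out the cells that only the subcluster table calls epithelial. With it the fold was 55.9 and 19.5 for Gsdmc2 and Gsdmc3, again with 0 counts set to 3, and 359.8 for Gsdmc4. In X2 it was 0.910 for Gsdmc2, the value with such an interval that turned, 1.06 for Gsdmc3, 2.24 for Gsdmc4 and 2.66 for Gsdmd. The share of absorptive precursors with at least 2 UMIs was 38.1% for Gsdmc2, 21.4% for Gsdmc3 and 4.76% for Gsdmd, and after thinning the share with any was 34.5%, 18.0%, 63.9% (Gsdmc4) and 4.03% (Gsdmd). Co-detection ratios of Gsdmc2 and Gsdmc3, Gsdmc2 and Gsdmc4, and Gsdmc3 and Gsdmc4 (3.00, 2.16, 2.47) were 1.54, 1.24 and 1.34 within subclusters and 1.39, 1.144 and 1.24 in absorptive precursors. With a minimum of 10 UMIs, which tests more genes, 840 genes were at least 2-fold lower in stem cells, 1174 lower in secretory precursors, 783 higher and 833 lower in absorptive precursors, and 1964 higher in the epithelial Pigr+ cluster. Apart from what the settings themselves construct, the cause was not tested. Joining barcodes 1 base apart left 493 of 516 cells, with 37 of 42 absorptive precursors, 29 stem cells and 26 secretory precursors. Whether such barcodes come from the same cell was not tested. The shares and co-detection counts above treat them as separate cells. With 1 sample no spread between animals is known, and Gsdmd, at 24 epithelial UMIs, is limited by depth. No paired analysis was possible because all cells form 1 sample.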
